A study of Homo sapiens with 2 samples.

Results

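The respiratory chain subunits are the proteins that build complexes I to V of the inner mitochondrial membrane, and their genes are split between the mitochondrial and the nuclear genome. The set was chosen by gene symbol: the MT-ND, MT-CO, MT-CYB and MT-ATP genes, and the nuclear NDUFA, NDUFB, NDUFC, NDUFS and NDUFV, SDHA to SDHD, UQCR, COX4 to COX8 and ATP5 genes, without pseudogenes and hyphenated names. This gave 100 of the 36601 genes of the matrix, 13 mitochondrially encoded and 87 nuclear-encoded. Membership rests on the symbol alone, and whether every gene codes for a structural subunit was not checked. CYC1 and NDUFAB1, which are subunits too, and the electron carrier CYCS fall outside these symbols and were followed separately.

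Complexes I, III and IV pass electrons to oxygen and pump protons across the inner membrane, complex II feeds electrons in from succinate, and complex V, the ATP synthase, uses the proton gradient to make ATP. The mitochondrially encoded messages are cut out of long RNAs copied from both strands of the mitochondrial DNA, and they encode the hydrophobic core of complexes I, III, IV and V. Complex II is wholly nuclear-encoded. The nuclear subunits are made in the cytosol and imported, so each of the other complexes needs products of both genomes.

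The cells were PC9, a human EGFR-mutant lung adenocarcinoma line, carrying lentiviral sgRNAs and sequenced by 10x Genomics 3' single-cell RNA-seq with capture of the sgRNA. Cells were grouped by the gene their sgRNA targets, with 4 sgRNAs in use against PGAM1 (phosphoglycerate mutase of glycolysis), 6 against ATF4 (a transcription factor of the stress response to amino acid shortage), 2 against MYC, 6 against CTNNB1 (beta-catenin), 6 against JUN, 6 against CTCF (a chromatin insulator protein) and 4 non-targeting controls. All groups share 1 cell line, 1 pool and 1 pair of libraries. Polybrene at 8 ug/ml, an infection rate of 40% and puromycin at 1 ug/ml are given for all of them. The labels speak of knockout, of dCas9 and of knockdown, and of day 7 and day 8. Neither the kind of perturbation nor the day is therefore settled. Each value below is for 1 sgRNA: the unique molecular identifiers (UMIs, counted molecules) of its cells were summed, and levels are CPM, counts scaled to the same total of gene UMIs and not divided by gene length.

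After filtering, 10142 of 10847 barcodes were kept and 5556 carried 1 assigned sgRNA. An sgRNA in use held 267726 to 6430143 UMIs, fewest for MYC. Of 94 kept MYC cells, 68 belonged to the MYC sgRNAs in use, because sgRNAs with fewer than 20 cells were left out. PGAM1 had 333 cells and controls 700. All 8 epithelial markers were detected, at 50.9 to 4345 CPM, whereas immune markers reached 17.1 CPM (CD68) and 4 of 5 fibroblast markers were at 0. Transcripts of the targeted gene were lower for PGAM1 (73.5 against 208 CPM in controls), ATF4 (260 against 362 CPM) and CTNNB1 (26.2 against 49.6 CPM), and had no called change for JUN (64.7 against 74.3 CPM in controls), CTCF (34.7 against 41.5 CPM) and MYC. MYC transcripts were at 142 and 86.7 CPM in MYC sgRNAs 2 and 4, both above all 4 controls at 63.1, 72.2, 72.6 and 71.3 CPM (log2 fold change 0.62 ± 0.25, unadjusted p = 0.015 and adjusted p = 0.48 by edgeR). MYC transcripts were thus not lower in this group, and the kind of perturbation is not settled. Whether MYC was perturbed cannot be told from these values, and the group's sgRNAs are called MYC after the label only. The sgRNAs farthest from the rest of their group in mitochondrial share or nuclear subunit share were often those with few cells: ATF4 sgRNA 2 (49 cells), PGAM1 sgRNA 2 (54), CTNNB1 sgRNA 6 (32), JUN sgRNA 5 (56) and CTCF sgRNA 3 (48). Since the sgRNAs share a culture and libraries, p-values below reflect spread from sgRNA to sgRNA and not between cultures.

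In cells with control sgRNAs the 13 mitochondrially encoded genes summed to 104052 CPM and the 87 nuclear-encoded genes to 24659 CPM. Among the mitochondrially encoded genes, MT-CO3 of complex IV averaged 22525 CPM, MT-ATP6 of the ATP synthase 19417 CPM and MT-CO2 of complex IV 16533 CPM. The complex III subunit MT-CYB averaged 11563 CPM and MT-CO1 of complex IV 11241 CPM. The complex I genes were lower in CPM, with MT-ND4 at 7889 CPM, MT-ND1 at 5419, MT-ND3 at 4170, MT-ND2 at 3275 and MT-ND5 at 1877 CPM. MT-ND6, which lies on the other strand, averaged 63.7 CPM, MT-ND4L 52.9 CPM and MT-ATP8 24.1 CPM. MT-ND4L and MT-ATP8 lie upstream of MT-ND4 and MT-ATP6 on shared messages with overlapping reading frames, so counts near the 3' end need not reflect the level of either one, and reads from nuclear copies of mitochondrial DNA cannot be told apart from these genes.

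In control cells the mitochondrially encoded genes ran from 24.1 to 22525 CPM, and the 80 nuclear members tested from 3.38 to 1459 CPM. The highest of each complex in control cells was NDUFS6 for complex I (740 ± 80.7 CPM), SDHB for complex II (105 ± 9.24 CPM), UQCRH for complex III (1459 ± 58.9 CPM), COX5B for complex IV (876 ± 24.8 CPM) and ATP5F1E for the ATP synthase (850 ± 10.3 CPM; SD, n = 4 sgRNAs each). Complex II was the scarcest in summed counts, with 348 CPM over its 4 genes. Complex I summed to 7838 CPM over 36 genes, complex III to 4375 CPM over 9, complex IV to 6039 CPM over 19 and the ATP synthase to 6058 CPM over 19. A reading of UQCRH is uncertain because UQCRHL, listed at 3.38 CPM, is a near-identical copy.

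Where a subunit exists as paralogs, these cells used the general form. COX4I1 had 668 CPM, whereas COX4I2 had 0 in control cells. COX6A1 had 424 CPM, COX7A2 393 CPM, COX7A2L 327 CPM and COX7B 448 CPM, whereas COX6A2, COX7A1 and COX7B2 had no UMI in any sgRNA in use. COX6A2 and COX7A1 are the forms known from heart and skeletal muscle. COX6B1 had 395 CPM against 5.55 CPM for COX6B2, a form known from testis, and COX8A had 603 CPM against 1.03 CPM for COX8C. The COX8C value rests on few counts, 9 UMIs over all sgRNAs in use. COX8C averaged 0.143 CPM over these sgRNAs and reached 2.89 CPM in 1 control. NDUFA4, now counted with complex IV, had 312 CPM against 1.72 CPM for NDUFA4L2. The 3 genes for the same c-ring subunit of the ATP synthase were all present, with ATP5MC3 at 728 CPM, ATP5MC2 at 240 CPM and ATP5MC1 at 188 CPM. A limit of 3 UMIs over all sgRNAs in use corresponds to 0.0419 CPM for the genes at 0. In all, 93 members passed the filter on low counts, the 13 mitochondrially encoded and 80 nuclear ones, and were tested among 11570 genes.

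Promoter sequences are shown for the 4 nuclear members that passed a test below and have a single RefSeq window, because they carry the differences described and allow their motifs to be compared. Of the 87 nuclear members, 71 had a window in RefSeq on GRCh38.p14, from 250 bases before to 50 bases after the start. Capitals mark matches, on either strand, to 4 motifs: GCGCA, any base, then GCGC (NRF1, a regulator of nuclear respiratory genes), CCGGAAGT (GABPA, another such regulator), AAGATGGC (YY1) and TGATGNAA (the composite element read by ATF4 with a C/EBP partner). No match of one motif overlapped another in the windows shown.
NDUFS6: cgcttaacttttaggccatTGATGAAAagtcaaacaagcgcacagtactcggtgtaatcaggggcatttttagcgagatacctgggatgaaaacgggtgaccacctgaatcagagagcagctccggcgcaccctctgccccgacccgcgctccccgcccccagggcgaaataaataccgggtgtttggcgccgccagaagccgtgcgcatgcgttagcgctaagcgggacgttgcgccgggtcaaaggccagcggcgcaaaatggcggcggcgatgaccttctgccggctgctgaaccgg
NDUFV1: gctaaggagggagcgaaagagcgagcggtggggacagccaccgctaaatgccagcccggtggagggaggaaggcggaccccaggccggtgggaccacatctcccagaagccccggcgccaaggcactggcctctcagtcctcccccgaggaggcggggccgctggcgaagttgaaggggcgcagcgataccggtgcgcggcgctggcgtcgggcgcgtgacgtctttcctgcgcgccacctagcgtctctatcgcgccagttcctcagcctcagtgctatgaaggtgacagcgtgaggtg
UQCRFS1: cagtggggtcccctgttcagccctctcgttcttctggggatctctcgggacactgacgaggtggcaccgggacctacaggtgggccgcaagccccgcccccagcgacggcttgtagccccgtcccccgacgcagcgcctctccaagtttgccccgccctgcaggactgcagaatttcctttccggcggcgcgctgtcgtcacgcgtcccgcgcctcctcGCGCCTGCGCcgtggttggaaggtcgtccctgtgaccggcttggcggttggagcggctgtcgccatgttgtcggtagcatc
NDUFB10: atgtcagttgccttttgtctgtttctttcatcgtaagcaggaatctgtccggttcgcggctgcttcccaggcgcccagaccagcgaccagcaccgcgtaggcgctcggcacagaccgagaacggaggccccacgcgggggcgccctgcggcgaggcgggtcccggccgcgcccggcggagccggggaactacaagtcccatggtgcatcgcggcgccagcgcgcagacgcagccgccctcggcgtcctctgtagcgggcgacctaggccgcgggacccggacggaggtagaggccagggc

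The NDUFS6 window (chr5:1801157-1801456, plus strand) holds TGATGAAA at bases -231 to -224 from the start. The UQCRFS1 window (chr19:29213102-29213401, minus strand) holds an NRF1 motif, written GCGCCTGCGC on the gene's strand because it matches in the reverse direction, at bases -31 to -22. The NDUFV1 window (chr11:67606686-67606985, plus strand) and the NDUFB10 window (chr16:1959288-1959587, plus strand) hold none of the 4. Over the 71 windows, 17 members held the NRF1 motif (23.9%), against 6.98% of all 27305 genes with a window and 14.3% of the 8958 tested genes with one. The GABPA motif stood in 12 members (16.9%), against 4.95% of all and 11% of tested genes. The YY1 motif also stood in 12 members (16.9%), against 3.52% and 7.02%. The ATF4 composite stood in 2 members, NDUFS6 and NDUFA5 (2.82%), against 4.46% of all and 2.58% of tested genes. These are matches of letters and were not tested as sites.

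Cells with PGAM1 sgRNAs had lower levels of 5 of the 13 mitochondrially encoded genes than control cells, and of 9 than the other 5 targets, with MT-CO3 in neither count. The 13 genes together made up 9.64%, 8.34%, 9.61% and 9.56% of gene UMIs in PGAM1 sgRNAs 1 to 4, against 10.7%, 10.7%, 10.2% and 10.0% in control sgRNAs 1 to 4. All 4 PGAM1 values lay below all 4 control values. Among the other targets, JUN sgRNA 5 (9.17%, 56 cells) and ATF4 sgRNA 2 (9.51%, 49 cells) lay within the PGAM1 range. The means were 9.29% ± 0.635 for PGAM1 and 10.4% ± 0.353 for controls (SD, n = 4 each), a difference of -1.12 percentage points; no other target was free of overlap with the controls. The mean was 10.2% ± 0.417 for ATF4, 10.4% ± 0.107 for MYC, 10.6% ± 0.366 for CTNNB1, 10.4% ± 0.665 for JUN and 10.4% ± 0.255 for CTCF.

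**Figure D1:**
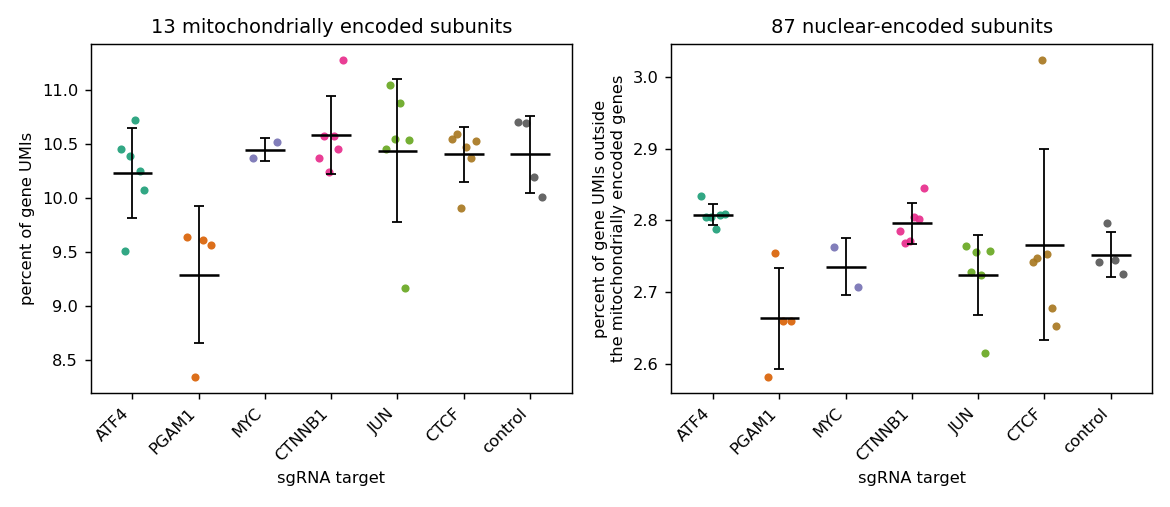
Share of gene UMIs from the 13 mitochondrially encoded subunits (left, percent) and share of the remaining gene UMIs from the 87 nuclear-encoded subunits (right, percent) by sgRNA target; each point is 1 sgRNA, the line is the mean and the whiskers are 1 SD. The 4 PGAM1 points on the left lie between 8.34% and 9.64%, below all 4 controls, and the ATF4 points on the right are tightly grouped around 2.81%. The vertical axes do not start at 0.

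The nuclear-encoded subunits were set against the UMIs outside the mitochondrially encoded genes, so that the 2 shares do not press on each other. They made up 2.58%, 2.75%, 2.66% and 2.66% in PGAM1 sgRNAs 1 to 4, against 2.74%, 2.80%, 2.74% and 2.73% in controls 1 to 4. PGAM1 sgRNA 2, the one with the lowest mitochondrial share, had the highest nuclear share of its group and lay within the controls, while the other 3 lay below all of them. Mitochondrially encoded UMIs per nuclear-encoded subunit UMI averaged 3.85 ± 0.373 for PGAM1 and 4.22 ± 0.133 for controls, and these values overlapped. Whether a cell had fewer mitochondria or less RNA per mitochondrion cannot be told apart from these counts.

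MT-CYB, the haem-carrying subunit of complex III that the mitochondrial genome supplies, had 9795, 8384, 9874 and 9667 CPM in PGAM1 sgRNAs 1 to 4, against 12184, 11741, 11277 and 11052 CPM in controls 1 to 4. MT-CO2, which takes electrons from cytochrome c into complex IV, had 14346, 12892, 13899 and 14125 CPM with PGAM1 sgRNAs, against 17108, 16831, 15958 and 16236 CPM in controls. MT-ND5, a proton-pumping subunit at the far end of the complex I membrane arm, had 1759, 1170, 1571 and 1452 CPM with PGAM1 sgRNAs, against 1912, 1916, 1827 and 1853 CPM in controls. For all of them every PGAM1 sgRNA lay below every control, with sgRNA 2 lowest. Some sgRNAs of other targets reached the PGAM1 range. The lowest JUN sgRNA had 9782 CPM for MT-CYB, and the lowest CTCF sgRNA 13318 CPM for MT-CO2. For MT-ND5 the lowest JUN sgRNA had 1543 CPM and the lowest ATF4 sgRNA 1627 CPM. Log2 fold changes were -0.32 ± 0.047 for MT-CYB (SE; edgeR adjusted p = 4.1e-06), -0.29 ± 0.045 for MT-CO2 (adjusted p = 1.6e-05) and -0.37 ± 0.063 for MT-ND5 (adjusted p = 0.00016).

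MT-CO1, which holds the oxygen-reducing centre of complex IV, had 10085, 9526, 10245 and 10310 CPM with PGAM1 sgRNAs, against 11524, 11521, 11130 and 10789 CPM in controls (-0.19 ± 0.039, edgeR adjusted p = 0.0048). The groups did not overlap, and the call was lost without control 1 (adjusted p = 0.057). It was also lost in cells scored as G1 (-0.19, adjusted p = 0.16) and under the stricter sgRNA rule of at least 10 UMIs and 90% of a cell's sgRNA UMIs (-0.19, adjusted p = 0.13). MT-ATP6, part of the proton channel of the ATP synthase, had 18365, 15473, 17767 and 18055 CPM with PGAM1 sgRNAs, against 20241, 20070, 19110 and 18249 CPM in controls (-0.18 ± 0.045, adjusted p = 0.039); here PGAM1 sgRNA 1 lay above control 4, and the call was lost without PGAM1 sgRNA 2 (adjusted p = 0.23) or 3 (0.11), or without control 1 (0.22), 2 (0.13) or 3 (0.078). It was also lost in G1-scored cells (-0.19, adjusted p = 0.32) and under the stricter sgRNA rule (-0.20, adjusted p = 0.17). MT-CO3, a core subunit of complex IV without a metal centre, had 22389, 19120, 23099 and 23159 CPM with PGAM1 sgRNAs, against 22909, 23484, 22081 and 21628 CPM in controls (-0.07 ± 0.047, adjusted p = 0.73), with 3 PGAM1 sgRNAs inside the control range and sgRNA 2 below it.

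**Figure D2:**
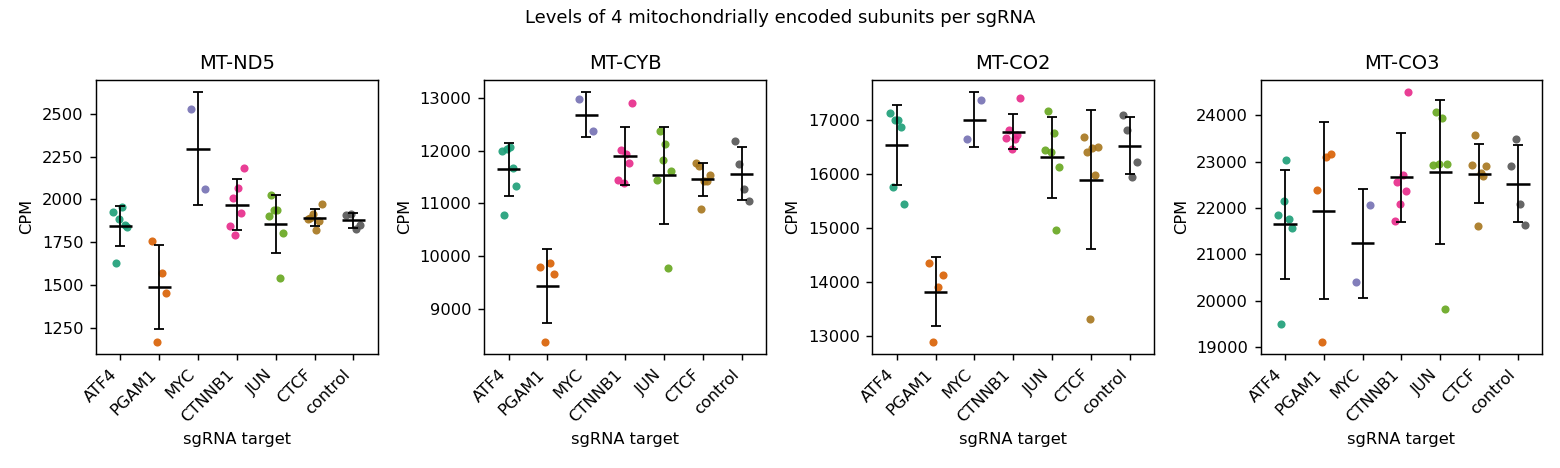
Levels (CPM) of MT-ND5, MT-CYB, MT-CO2 and MT-CO3 by sgRNA target; each point is 1 sgRNA, the line is the mean and the whiskers are 1 SD. PGAM1 sgRNAs lie below every control for the first 3 genes and overlap the controls for MT-CO3, and MYC sgRNA 2 has the highest MT-ND5 level, 2529 CPM. The vertical axes do not start at 0.

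Of the 13 mitochondrially encoded genes, 5 fell with PGAM1 sgRNAs against controls and none rose, as did 1 of 80 nuclear members, where 0.389% of all genes tested passed in either direction and 0.303% were lower. All 13 log2 fold changes were negative, with a median of -0.19, against -0.06 over the 80 nuclear members, of which 56 were negative, and 0.01 over all genes. Levels did not overlap between PGAM1 and control sgRNAs for 7 of the 13, all of them lower (MT-CO1, MT-CO2, MT-CYB, MT-ND1, MT-ND3, MT-ND4 and MT-ND5), where 4.94% of all genes did not overlap and 2.2% were lower. MT-ND1 (-0.22, edgeR adjusted p = 0.051), MT-ND4 (-0.16, 0.051), MT-ND3 (-0.19, 0.11) and MT-ND2 (-0.18, 0.12), all of the complex I membrane arm, did not pass. MT-ATP8 (-0.27), MT-ND4L (-0.19) and MT-ND6 (-0.12) had SEs of 0.19, 0.13 and 0.14 and were not resolved at their depth.

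Against the equally weighted mean of the other 5 targets, which uses none of the control sgRNAs, 9 of the 13 mitochondrially encoded genes and 2 of the 80 nuclear members fell and none rose, where 1.11% of all genes passed and 0.657% were lower. MT-CYB fell by 0.34 (edgeR adjusted p = 3.2e-10), to a mean of 9430 CPM with PGAM1 sgRNAs, against 11843 CPM over the other 5 targets. MT-ND5 fell by 0.42 (adjusted p = 1.7e-08) and MT-CO2 by 0.27 (adjusted p = 8e-08). MT-ND1 fell by 0.21, MT-ATP6 by 0.19, MT-ND3 by 0.18, MT-CO1 by 0.17, MT-ND2 by 0.15 and MT-ND4 by 0.14 on the log2 scale. MT-CO3 was at 21942 CPM with PGAM1 sgRNAs, against 22209 CPM over the other 5 targets (-0.03 ± 0.036, adjusted p = 0.81). The control and other-target comparisons share the PGAM1 sgRNAs, and without PGAM1 sgRNA 2 the calls of MT-ND1, MT-ND2, MT-ND3 and MT-ND4 against the other 5 targets were lost, leaving 7 members called. The call of MT-ND2 was lost in 19 of 34 such fits, that of MT-ND3 also without PGAM1 sgRNA 3 or MYC sgRNA 4, and that of MT-ND4 also without PGAM1 sgRNA 1 or MYC sgRNA 4. Under the stricter sgRNA rule MT-ND2 (-0.11), MT-ND3 (-0.18), MT-ND4 (-0.15) and NDUFB9 (-0.23) lost their calls against the other 5 targets. In G1-scored cells MT-ND2 (-0.22), MT-ND4 (-0.16), NDUFB9 (-0.10) and NDUFB10 (-0.31) did.

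**Figure D3:**
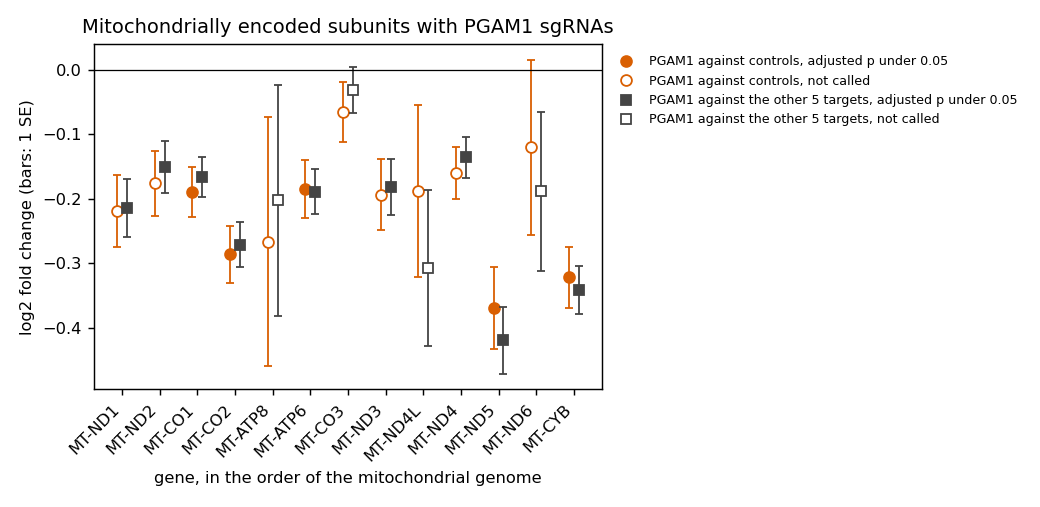
Log2 fold change of the 13 mitochondrially encoded genes with PGAM1 sgRNAs against controls (circles) and against the mean of the other 5 targets (squares), in the order of the genes on the mitochondrial genome; bars are 1 SE and filled marks have an edgeR adjusted p under 0.05. All marks lie below 0, with MT-CO3 nearest to it between MT-ATP6 and MT-ND3, its neighbours in the genome.

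The make-up of the mitochondrially encoded pool differed as well, a measure that does not depend on library scaling. MT-CO3 took 23.2%, 22.9%, 24.0% and 24.2% of the mitochondrially encoded UMIs in PGAM1 sgRNAs 1 to 4, against 21.4%, 22.0%, 21.6% and 21.6% in controls 1 to 4. Its share reached at most 22.2% in any sgRNA of the other 5 targets. MT-CYB took 10.2%, 10.1%, 10.3% and 10.1% with PGAM1 sgRNAs, against 11.4%, 11%, 11.1% and 11% in controls, and at least 10.7% in the sgRNAs of the other 5 targets. MT-CO2 took 14.9%, 15.5%, 14.5% and 14.8% with PGAM1 sgRNAs, against 16%, 15.7%, 15.6% and 16.2% in controls, although CTCF sgRNA 3 was lower still at 13.4%. MT-CO3 was thus higher, and MT-CYB and MT-CO2 lower, in every PGAM1 sgRNA than in every control, while the shares of the other 10 genes overlapped. Shares of 1 pool cannot move independently, and these differences were not tested.

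By complex, the mitochondrially encoded share of gene UMIs with PGAM1 sgRNAs averaged 2.02% for complex I, against 2.27% in controls. It averaged 0.943% with PGAM1 sgRNAs and 1.16% in controls for complex III, 4.58% with PGAM1 sgRNAs and 5.03% in controls for complex IV, and 1.74% with PGAM1 sgRNAs and 1.94% in controls for the ATP synthase. The first 3 did not overlap between groups, and for the ATP synthase PGAM1 sgRNA 1 lay within the controls. For the nuclear genes of complex I the share of the remaining UMIs averaged 0.840% with PGAM1 sgRNAs, against 0.875% in controls. With PGAM1 sgRNAs it averaged 0.0381% for complex II, 0.470% for complex III, 0.661% for complex IV and 0.654% for the ATP synthase. The same complexes averaged 0.0389%, 0.488%, 0.674% and 0.676% in controls. All 5 nuclear shares overlapped between the groups.

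Among nuclear members NDUFB9, an accessory subunit of the complex I membrane arm, had 202, 206, 228 and 194 CPM with PGAM1 sgRNAs, against 260, 251, 256 and 213 CPM in controls. PGAM1 sgRNA 3 lay above control 4, and the others lay below all controls. Its log2 fold change was -0.28 ± 0.068 against controls (edgeR adjusted p = 0.037) and -0.27 against the other 5 targets (adjusted p = 0.0061). The call against controls was lost without PGAM1 sgRNA 1, 2 or 4 or control 1, 2 or 3 (adjusted p from 0.065 to 0.23), and against the other targets without PGAM1 sgRNA 4 (0.11). In cells scored as G1 the value was -0.10 (adjusted p = 0.92 against controls). NDUFB10, another subunit of that arm whose promoter is shown above, had 266, 287, 275 and 264 CPM with PGAM1 sgRNAs, against 297, 290, 311 and 316 CPM in controls. These did not overlap, yet only the comparison with the other 5 targets passed (-0.29, edgeR adjusted p = 0.0021). Against controls the value was -0.17 (edgeR adjusted p = 0.39). By target, NDUFB10 averaged 273 CPM with PGAM1, 305 with JUN, 319 with CTNNB1, 327 with CTCF, 338 with ATF4 and 376 with MYC sgRNAs. Controls averaged 304 CPM, so the reference of other targets lay above them, most of all for MYC. The high values against controls among nuclear members of at least 10 CPM were NDUFA2 (0.17), NDUFA5 (0.16) and ATP5MG (0.12), and the other low ones were NDUFV3 (-0.28) and UQCRFS1 (-0.20); none of these passed against controls.

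No gene of the related lists was called with PGAM1 sgRNAs. None of the 54 assembly factors, 28 genes for expression of the mitochondrial genome, 6 tested regulators of respiratory genes, 22 tested genes of pyruvate entry and the citric acid cycle, or of CYC1, NDUFAB1 and CYCS passed in either comparison by edgeR. Of all genes tested, 0.389% passed against controls and 1.11% against the other 5 targets. For lists of this size, the absence of calls was near that rate. Their medians against controls lay between -0.01 and 0.06, against 0.01 for all genes. These lists include TFAM, POLRMT and LRPPRC, which copy the mitochondrial DNA into RNA or stabilise the product.

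The lower mitochondrial share was set beside cell cycle phase and depth. In cells scored as G1 it averaged 9.29% ± 0.885 with PGAM1 sgRNAs and 10.8% ± 0.85 in controls, with ranges of 8.29% to 10.3% and 9.75% to 11.6%. In G2M it averaged 8.98% ± 0.744 with PGAM1 sgRNAs and 9.91% ± 0.169 in controls, and in S phase 10.2% ± 0.701 and 10.4% ± 0.965. Among cells of 8000 to 16000 UMIs it averaged 9.61% ± 0.363 with PGAM1 sgRNAs and 11% ± 0.450 in controls, and the ranges of 9.18% to 10.0% and 10.5% to 11.5% did not overlap. Above 16000 UMIs it averaged 8.34% ± 1.52 with PGAM1 sgRNAs and 8.75% ± 0.320 in controls and overlapped. PGAM1 cells were 52.3% G1 and control cells 58.3%. Median depth was 11929 UMIs in PGAM1 cells and 12110.5 UMIs in control cells; the part of phase or depth in the result was not tested. The cap of 20% mitochondrial UMIs removed 1.19% of PGAM1 cells and 1.13% of control cells, and without it the difference in share was -1.13 points. With a cap of 10%, which acts on these genes' own counts, it was -0.153 points and none of the 6 calls passed. The log2 fold changes under that cap were -0.05 for MT-CO1 and MT-ATP6, -0.19 for MT-CO2, -0.18 for MT-CYB and -0.17 for MT-ND5, and -0.40 for NDUFB9 (adjusted p = 0.067), farther from 0 than the -0.28 without it.

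With ATF4 sgRNAs 1 nuclear member, NDUFS6, was called against controls, and no mitochondrially encoded gene was. The nuclear subunit share was 2.83%, 2.81%, 2.80%, 2.79%, 2.81% and 2.81% in ATF4 sgRNAs 1 to 6, against 2.74%, 2.80%, 2.74% and 2.73% in controls. It lay above all controls in 5 of 6 ATF4 sgRNAs, with means of 2.81% ± 0.0147 with ATF4 sgRNAs and 2.75% ± 0.0311 in controls. CTNNB1 sgRNAs came near this, with a mean of 2.80% ± 0.0285 and 3 of 6 above all controls. The mean was 2.77% ± 0.133 for CTCF, 2.74% ± 0.0393 for MYC and 2.72% ± 0.0561 for JUN. The nuclear subunit share of every target overlapped the controls. The nuclear genes of complex I made up 0.904% ± 0.0112 with ATF4 sgRNAs and 0.875% ± 0.0119 in controls, and the 2 groups did not overlap. The ATP synthase share was above all controls in 5 of 6 ATF4 sgRNAs and the complex IV share below all controls in 5 of 6. Among CTNNB1 sgRNAs the complex I share was above all controls in 2 of 6, the ATP synthase share in 3 of 6 and the complex IV share in 4 of 6.

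NDUFS6, an accessory subunit of the electron-input module of complex I with the ATF4 composite in its window, had 940, 873, 861, 831, 874 and 827 CPM with ATF4 sgRNAs, against 778, 791, 771 and 619 CPM in controls. All 6 ATF4 sgRNAs lay above all controls, and control 4 stood apart from the other controls. It was the only member called against controls (0.18 ± 0.050, edgeR adjusted p = 0.030), where 1.75% of all genes tested passed and 0.605% were higher. Without control 4 the log2 fold change was 0.12 (adjusted p = 0.27), and the call was also lost without control 3 or ATF4 sgRNA 1, 3 or 5 (adjusted p from 0.054 to 0.11). It was 0.15 in G1-scored cells (adjusted p = 0.27) and 0.19 under the stricter sgRNA rule (adjusted p = 0.14). Against the other 5 targets, which do not include the controls, it was 0.19 ± 0.038 (adjusted p = 0.00036). Levels did not overlap between ATF4 and control sgRNAs for 8 of the 93 members (NDUFS6, NDUFB8, NDUFB9, NDUFB10, ATP5F1B, ATP5MC1, ATP5MC2 and ATP5MG), where 4.11% of all genes did not.

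Against the other 5 targets 7 of 80 nuclear members and 0 of 13 mitochondrially encoded ones passed with ATF4 sgRNAs, where 5.07% of all genes passed (2.61% higher and 2.46% lower), so the members' rate was near that of all genes. The 5 higher genes were NDUFS6, ATP5F1B, UQCRFS1, NDUFB9 and NDUFV1. ATP5F1B, the catalytic beta subunit of the ATP synthase, had 465, 423, 429, 416, 419 and 418 CPM with ATF4 sgRNAs, against 376, 400, 393 and 385 CPM in controls, and was higher than the other 5 targets by 0.16 (edgeR adjusted p = 0.0056). UQCRFS1, the Rieske iron-sulfur protein of complex III, averaged 240 CPM with ATF4 sgRNAs and 204 CPM over the other 5 targets (0.19, adjusted p = 0.0090). NDUFB9 averaged 272 and 239 CPM in these groups (0.19, adjusted p = 0.0037), and NDUFV1, the subunit of complex I that takes electrons from NADH, 308 and 271 CPM (0.15, adjusted p = 0.039). The other 5 targets were not alike. By target, NDUFB9 averaged 208 CPM with PGAM1, 222 with MYC, 249 with JUN, 250 with CTCF and 266 with CTNNB1 sgRNAs. ATP5F1B averaged 428 CPM with ATF4 sgRNAs, 330 with MYC, 362 with PGAM1, 390 with JUN, 400 with CTNNB1 and 409 with CTCF.

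The remaining 2 members were lower with ATF4 sgRNAs than over the other 5 targets. COX7A2, an accessory subunit of complex IV, had 340, 333, 347, 397, 372 and 366 CPM with ATF4 sgRNAs, against 378, 411, 385 and 398 CPM in controls (-0.18 against the other targets, edgeR adjusted p = 0.0085). ATP5MC2, one of the genes for the c-ring, had 204, 220, 228, 236, 189 and 226 CPM with ATF4 sgRNAs, against 240, 244, 239 and 239 CPM in controls (-0.19 against the other targets, adjusted p = 0.023). ATP5MC2 averaged 217 CPM with ATF4 sgRNAs, 221 with CTCF, 239 with CTNNB1, 253 with JUN, 257 with PGAM1 and 261 with MYC. Its paralog ATP5MC1 went the other way against controls (0.15, adjusted p = 0.21) without passing. The count was 5 to 11 when sgRNAs were left out in turn, 11 without CTCF sgRNA 3, and it was 2 in G1-scored cells and 2 under the stricter sgRNA rule. In both of these NDUFS6 and NDUFB9 passed. ATP5F1B (0.15 in G1-scored cells and 0.16 under the stricter rule), COX7A2 (-0.17 and -0.15), UQCRFS1 (0.19 in both), NDUFV1 (0.16 and 0.13) and ATP5MC2 (-0.18 and -0.08) did not, with adjusted p from 0.11 to 0.75. With sgRNAs left out, calls were lost for NDUFB9 (adjusted p = 0.085) and UQCRFS1 (0.056) without MYC sgRNA 4, and for ATP5MC2 without ATF4 sgRNA 1 or 5, MYC sgRNA 2 or PGAM1 sgRNA 4 (0.052 to 0.13). That of NDUFV1 was lost in 21 of 34 such fits.

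**Figure D4:**
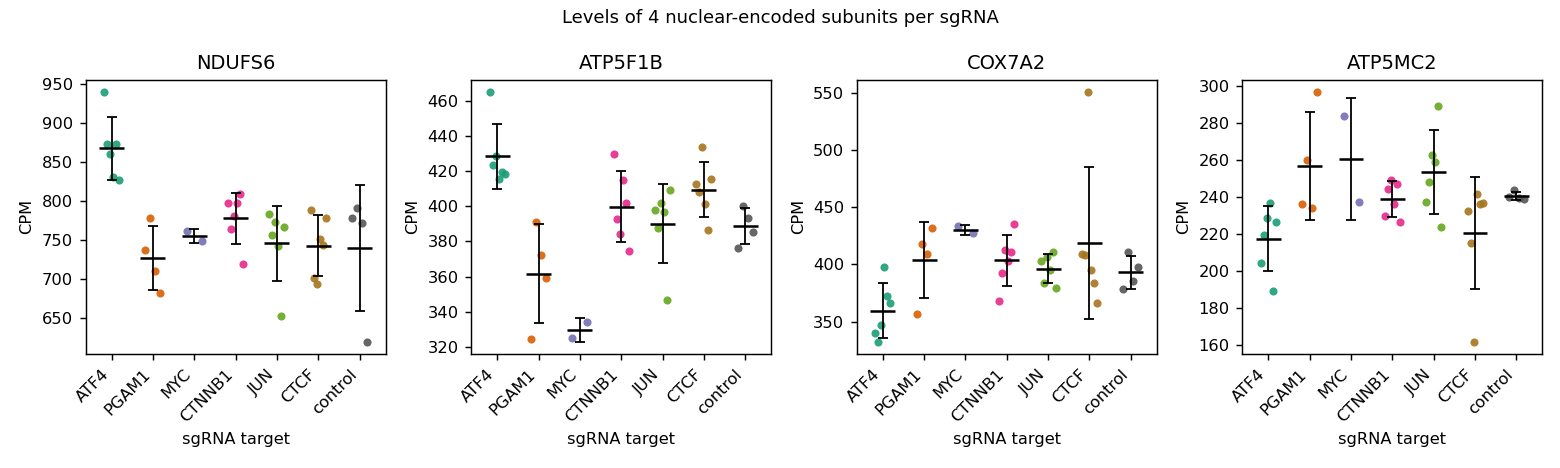
Levels (CPM) of NDUFS6, ATP5F1B, COX7A2 and ATP5MC2 by sgRNA target; each point is 1 sgRNA, the line is the mean and the whiskers are 1 SD. ATF4 sgRNAs are above every control for NDUFS6 and ATP5F1B and below every control for ATP5MC2, control 4 is low for NDUFS6 at 619 CPM, and CTCF sgRNA 3 is at 551 CPM for COX7A2. The vertical axes do not start at 0.

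Genes that build and serve the chain were also compared. Of 54 assembly factors, 9 were higher and 1 lower than over the other 5 targets, read against the 5.07% of all genes. CMC2, of complex IV assembly, averaged 92.7 CPM with ATF4 sgRNAs and 67.0 CPM in controls (0.42 ± 0.078, edgeR adjusted p = 0.00027). UQCC3, of complex III assembly, averaged 193 and 151 CPM in these groups (0.30, adjusted p = 0.0022), and every ATF4 sgRNA lay above every control for both genes. These 2 were the assembly factors called against controls, where 1.75% of all genes passed and 0.605% were higher. NDUFAF4 (0.36), PET117 (0.35), SDHAF3 (0.35), NDUFAF8 (0.28), COX20 (0.24), COA6 (0.21) and COA4 (0.19) were higher against the other 5 targets and PET100 lower (-0.36).

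CYCS, cytochrome c, averaged 244 CPM with ATF4 sgRNAs and 185 CPM in controls (0.32 ± 0.065, edgeR adjusted p = 0.0011). CYC1, the cytochrome c1 subunit of complex III, averaged 408 and 354 CPM in these groups; it passed against the other 5 targets (0.19, adjusted p = 0.0019) and not against controls (adjusted p = 0.13). Of the 28 genes for expression of the mitochondrial genome, SLIRP (0.20) and SSBP1 (0.13) were higher against the other 5 targets. So were ESRRA (0.24), an orphan nuclear receptor that drives respiratory genes, as 1 of 6 tested regulators, and MDH2 (0.15) and PDHA1 (0.22) of 22 genes of pyruvate entry and the citric acid cycle. No gene of these 3 lists passed against controls, where 1.75% of all genes did. Against the other 5 targets 5.07% of all genes passed and 2.61% were higher, and these lists are short. The mitochondrially encoded genes had a median log2 fold change of -0.06 against controls, with 12 of 13 negative and none called.

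**Figure D5:**
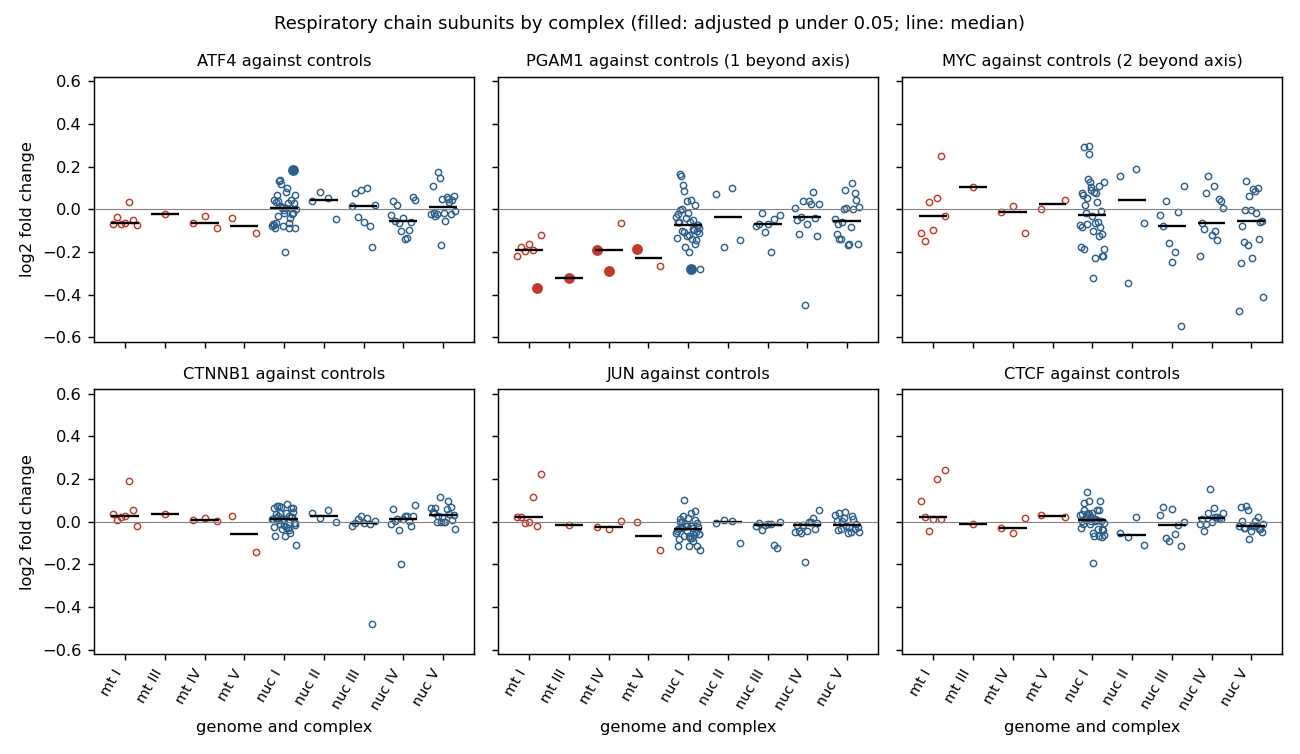
Log2 fold change of the tested subunits against controls for each target, split by genome (mt, mitochondrial; nuc, nuclear) and complex; each point is 1 gene, filled where the edgeR adjusted p is under 0.05, and lines are medians. The mitochondrially encoded genes lie below 0 with PGAM1 sgRNAs, and close to 0 with ATF4, CTNNB1, JUN and CTCF sgRNAs. The spread is widest for MYC, which had 2 sgRNAs in use.

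With MYC sgRNAs no member passed against controls by edgeR, where 0.277% of all genes did, although 10 had an unadjusted p under 0.05, as did 7.83% of all genes, and DESeq2 called 2 (NDUFB10 and MT-ND5). Against the other 5 targets MT-ND5 was higher (0.32 ± 0.073, edgeR adjusted p = 0.010), where 0.657% of all genes passed. It had 2529 and 2063 CPM in MYC sgRNAs 2 and 4, against 1912, 1916, 1827 and 1853 CPM in controls. The call was lost without MYC sgRNA 2, which had 23 cells (0.20, adjusted p = 0.65), as it was in G1-scored cells (0.26, adjusted p = 0.60) and under the looser (0.18, adjusted p = 0.11) and stricter (0.21, adjusted p = 0.73) sgRNA rules. ATP5F1A, the alpha subunit of the ATP synthase, had 149 and 144 CPM with MYC sgRNAs, against 194, 215, 210 and 181 CPM in controls (-0.48, adjusted p = 0.20). Levels of 17 of the 93 members did not overlap between MYC and control sgRNAs, where 26.4% of all genes did not, a background set by the small number of sgRNAs. ATP5PO (-0.41) and NDUFS1 (-0.86) were the other low values and NDUFB10 (0.30), NDUFA3 (0.29) and NDUFB1 (0.26) the high ones; none passed.

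With CTCF sgRNAs MT-ND1 of complex I was higher than over the other 5 targets (0.16 ± 0.036, edgeR adjusted p = 0.0090), the only member among the 0.545% of genes that passed. It had 5579, 5721 and 6251 CPM as lowest, median and highest of the 6 CTCF sgRNAs, against 5497, 5608, 5372 and 5200 CPM in controls, so 1 CTCF sgRNA lay within the control range. The call was lost in G1-scored cells (0.14, adjusted p = 0.16) and under the stricter sgRNA rule (0.14, adjusted p = 0.15). Its share of the mitochondrially encoded UMIs, 5.57% ± 0.37 with CTCF sgRNAs and 5.21% ± 0.06 in controls, was above all controls in 6 of 6. Against controls no member passed, where 0.0259% of all genes did, and 2 members had an unadjusted p under 0.05, as did 6.23% of all genes.

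With CTNNB1 and JUN sgRNAs no member passed in either comparison by edgeR, nor against controls by DESeq2; against the other targets DESeq2 called 1 member for CTNNB1 and 0 for JUN. Against controls 0.00864% of all genes passed for each of the 2 targets, and against the other targets 0.199% for CTNNB1 and 0.233% for JUN. Against controls unadjusted p was under 0.05 for 3 members with CTNNB1 sgRNAs (4.3% of all genes) and 2 with JUN sgRNAs (4.63%). Against the other targets it was under 0.05 for 20 members with CTNNB1 sgRNAs (7.63% of all genes) and 9 with JUN sgRNAs (7.68%). Among nuclear members of at least 10 CPM, the highest and lowest values against controls were ATP5MC1 (0.11) and NDUFV3 (-0.11) for CTNNB1, and NDUFA9 (0.10) and NDUFV3 (-0.13) for JUN. For CTCF they were NDUFA7 (0.14) and NDUFB6 (-0.19). Levels did not overlap with controls for 1, 1 and 0 members with CTNNB1, JUN and CTCF sgRNAs, where 1.54%, 0.882% and 1.42% of all genes did not.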

How the data were processed

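The authors deposited raw counts, whole-number counts of UMIs per feature and cell barcode, for a gene expression library and an sgRNA capture library in 1 joint matrix. Per the submitters' processing notes, Cell Ranger 6.1.2 and the build hg38 were used. Strand use, alignment settings and doublet removal were not given in the sources used here.

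Cells needed at least 1000 gene UMIs, 500 genes and at most 20% mitochondrial UMIs, all of which come from the 13 subunits. This removed 705 barcodes, 522 by the mitochondrial cap alone. A cell was assigned to an sgRNA with at least 5 UMIs and 80% of its sgRNA UMIs (54.8% of kept cells); 9.96% of kept cells held at least 5 UMIs for 2 or more targets, and single assignment was the only guard against doublets. UMIs were summed per sgRNA, for 34 sgRNAs with at least 20 cells. edgeR 4.0.16 (TMM scaling, its expression filter, quasi-likelihood test, Benjamini-Hochberg adjustment over all 11570 genes tested, threshold 0.05) was run in R 4.3.3 as 1 fit over all groups, for each target against controls and against the equally weighted mean of the other 5 targets. It was also run on simulated counts with known folds in the PGAM1 sgRNAs. Those counts were drawn independently for each gene, so they cannot show the effect of shifts shared by many genes of 1 sgRNA. Shares were described without a test. An sgRNA's value is a sum over its cells, so depth sets its precision; its counting floor is 3 UMIs. Cell cycle phases were scored with scanpy 1.11.5. Promoters and positions come from RefSeq on GRCh38.p14, which gave a position for all 100 members.

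The members, the lists and the tests were chosen with earlier results of these data known. Named genes were the 13 mitochondrially encoded ones, every nuclear member called in any comparison, the 3 highest and 3 lowest nuclear members of each target with at least 10 CPM, the highest of each complex, the paralog sets, and genes of the lists only where called. The alternatives were another scaling, scaling without the mitochondrially encoded genes, DESeq2 1.42.0, other filters, other sgRNA rules, cells scored as G1, a smaller fit, and leaving out each sgRNA; some for the counts against the other 5 targets were added after the data were seen.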

Additional observations from a re-analysis of the deposited data

Results flagged for a closer look

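Among 48 groups of 4 to 6 sgRNAs, 10 had 1 sgRNA far from the others, where chance gives about 1 in 20. In the mitochondrially encoded share these were PGAM1 at its lowest, 8.34%, JUN at its lowest, 9.17%, CTCF at its lowest, 9.91%, and CTNNB1 at its highest, 11.3%. In the nuclear subunit share they were JUN at its lowest, 2.61%, and CTCF at its highest, 3.02%. The sgRNAs behind these shares had 32 to 56 cells. Among single genes they were ATP5F1B in ATF4 sgRNA 1 (465 CPM), MT-CYB in PGAM1 sgRNA 2 (8380 CPM), NDUFS6 in control 4 (619 CPM) and MT-ND2 in control 1 (3320 CPM). The rate of 1 in 20 takes the sgRNAs of a group as equally precise, while these had 32 to 492 cells. Some flags also share counts, as MT-CYB and the mitochondrially encoded share in PGAM1 sgRNA 2 do. Whether the flags exceed chance was not tested.

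Effects also differed between targets, by the edgeR test of 1 target against the mean of the other 5, for 20 pairs of member and target. With PGAM1 sgRNAs these were, on the log2 scale, MT-ND5 (-0.42), MT-CYB (-0.34), NDUFB10 (-0.29), MT-CO2 (-0.27), NDUFB9 (-0.27), MT-ND1 (-0.21), MT-ATP6 (-0.19), MT-ND3 (-0.18), MT-CO1 (-0.17), MT-ND2 (-0.15) and MT-ND4 (-0.14). With ATF4 sgRNAs they were NDUFS6 (0.19), NDUFB9 (0.19), UQCRFS1 (0.19), ATP5F1B (0.16), NDUFV1 (0.15), COX7A2 (-0.18) and ATP5MC2 (-0.19). The others were MT-ND5 with MYC sgRNAs (0.32) and MT-ND1 with CTCF sgRNAs (0.16).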

How the results depend on the processing

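Counts of members called against controls moved as follows. For ATF4 the 1 call became 0 under the looser and the stricter sgRNA rule, with at most 10% mitochondrial UMIs and in G1-scored cells, and 0 to 1 when sgRNAs were left out. For PGAM1 the 6 became 3 under the stricter sgRNA rule and in G1-scored cells, 0 with at most 10% mitochondrial UMIs, and 3 to 6 when sgRNAs were left out, 3 without control 1; it was 8 when scaled without the mitochondrially encoded genes, 7 with DESeq2, and 9 with no filter on low counts. For MYC the 0 became 2 with DESeq2, 3 under the looser rule and 1 when fitted with controls alone. Against the other 5 targets, leaving out sgRNAs gave 5 to 11 for ATF4 (main 7), 7 to 11 for PGAM1 (main 11), 0 to 2 for MYC (main 1; 2 without JUN sgRNA 5 or CTCF sgRNA 3), 0 to 1 for CTNNB1 (main 0) and 1 to 2 for CTCF (main 1); with at most 10% mitochondrial UMIs, or at least 50 cells per sgRNA, these could not be run, because no MYC sgRNA was left. Further alternatives for these counts were chosen after seeing the data. Under the looser sgRNA rule the counts were 12 for ATF4, 3 for MYC, 1 for CTNNB1 and 3 for CTCF. Under the stricter rule they were 2 for ATF4, 7 for PGAM1, 0 for MYC and 2 for CTCF, and in G1-scored cells 2 for ATF4, 7 for PGAM1, 0 for MYC and 0 for CTCF. DESeq2 gave 3 for MYC and 1 for CTNNB1, DESeq2 size factors 2 for MYC, and no filter on low counts 2 for CTNNB1 and 2 for CTCF. The difference in mitochondrially encoded share for PGAM1 was -0.153 points with at most 10% mitochondrial UMIs (main -1.12; -1.25 to -0.800 when sgRNAs were left out), and for MYC 0.308 under the stricter rule (main 0.0438). The nuclear share for MYC was 0.0223 in G1-scored cells (main -0.0167).

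Signs of uncalled values turned as follows. With PGAM1 sgRNAs against controls and at most 10% mitochondrial UMIs, they were 0.12 for MT-ATP8, 0.05 for MT-CO3, 0.02 for MT-ND2, 0.01 for MT-ND4, 0.19 for MT-ND6, 0.05 for NDUFV3 and -0.05 for NDUFA2. MT-ND6 was 0.08 in G1-scored cells in both PGAM1 comparisons, and MT-CO3 ranged from -0.07 to 0.02 against the other 5 targets when sgRNAs were left out, 0.02 without PGAM1 sgRNA 2. UQCRC1 with CTCF was 0.0034 under the stricter rule, NDUFV3 with CTNNB1 0.06 with at most 10% mitochondrial UMIs, NDUFS4 with JUN -0.0024 to 0.11 when sgRNAs were left out (lowest without control 1) and NDUFB1 with MYC -0.56 to 0.58 (lowest without MYC sgRNA 4). The causes were not tested. Beside these, sgRNAs left out aside, 140 values of counts and shares and 719 of single genes kept their direction and call under an alternative, 45 lost a call and 12 gained one. The 719 include values not called at the start, which had no call to lose. With sgRNAs left out, 1168 values of single genes stayed the same, 72 lost a call and 1 gained one. Of the counts and shares in those fits, 346 stayed the same and 20 moved. No paired analysis was possible because sgRNA numbers of different targets do not mark shared samples. Depth limits MYC and the genes under 100 CPM.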

Other observations

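The mitochondrially encoded share also varied with cell cycle score and depth within groups. With CTNNB1 sgRNAs, the group with the most cells, it averaged 11.3% ± 0.520 in cells scored as G1, 9.95% ± 0.578 in S and 9.81% ± 0.190 in G2M (SD over 6, 5 and 6 sgRNAs). The lowest CTNNB1 sgRNA in G1, at 10.6%, lay above the highest in G2M, at 10.0%. In CTCF cells it averaged 10.9% ± 0.378 in G1 and 9.81% ± 0.494 in G2M, and these ranges overlapped. The nuclear subunit share of the remaining UMIs was 2.77% ± 0.0135 in G1 and 2.81% ± 0.0583 in G2M for CTNNB1. By depth, CTNNB1 cells under 8000 UMIs had 11.1% to 11.9% over 5 sgRNAs, those of 8000 to 16000 UMIs 10.6% to 11.3% over 6 and those above 16000 UMIs 9.07% to 9.79% over 5. Phase was scored from genes of the same cells, so these values are descriptions.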
